A study of Homo sapiens with 6 samples.

Results

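The J-domain proteins, also called HSP40 co-chaperones, were examined in A375 cells, a human malignant melanoma line, after treatment with PAL and without it. PAL is Ringer's lactate solution activated by low-temperature plasma, and 3 libraries carry that label, against 3 libraries labelled control. Messenger RNA was sequenced after poly-A enrichment of total RNA, and the sample labels give no dose, exposure time or handling of the control cells. The PAL columns of the deposited table carry the number 64, whose meaning is not explained there. The members are the protein-coding genes whose names begin with DNAJA, DNAJB or DNAJC and a number, which gave 45 of the 58735 genes in the deposited table.

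Each J-domain protein carries a short helical domain that makes an HSP70 chaperone split ATP, which locks the HSP70 onto its client protein. Class A and class B proteins keep the general layout of the bacterial protein DnaJ and present unfolded clients to HSP70. Class C proteins share little beyond the J domain and mostly bring HSP70 to 1 place or 1 task, such as a translocon, a clathrin coat or the spliceosome. Several family genes are known targets of heat shock factor in the cytosol or of the unfolded protein response of the endoplasmic reticulum, the quality control pathway for secreted proteins.

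The family's RNA was much lower in PAL libraries, and nearly all of the difference in summed FPKM lay in a few class B and class A genes. Of 35 members with enough signal to be tested, 13 were lower in PAL libraries, 4 were higher and 18 did not pass (limma on log2(FPKM + 1), adjusted p below 0.05 over all genes tested, 3 libraries a group). FPKM is a read number scaled by gene length and by library size. Among all 12258 genes tested, 14.5% were lower and 11.4% were higher in PAL libraries. The 13 lower members were 37.1% of the tested family. The 4 higher members were 11.4% of it, the same share as among all genes. The median log2 fold change, always PAL minus control and on the log2(FPKM + 1) scale, was -0.07 in the family and 0.0043 over all genes. In 15 tested members every PAL value lay below every control value, and in 10 every PAL value lay above, where 23.6% and 21.4% of all tested genes did so. No tested member reached the minimum of 1 FPKM in 3 libraries through only 1 group.

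Between 15064971 and 17711389 reads were assigned to genes in each library. The family took 0.274%, 0.277% and 0.301% of them in PAL libraries and 0.771%, 0.808% and 0.841% in control libraries. The size that the FPKM values were divided by was 1.04 to 1.05 times the assigned reads in PAL libraries and 0.980 to 0.984 times in control libraries. As deposited, 44.0% of all calls were higher in PAL, against 73.4% with plain read totals, 70.1% with values scaled to TPM and 59.2% with quantile normalization. Small changes near 0 therefore depended on the scaling. Nothing in the labels says whether replicates came from separate cultures, so p-values measure the spread between these libraries. The lineage factor SOX10 averaged 108 FPKM in PAL libraries and 88.1 FPKM in control libraries, whereas the pigment enzyme TYR was at 0 in all 6. The 10 melanocyte lineage markers, 6 of them at 1 FPKM or more in at least 3 libraries, summed to 136 to 138 FPKM in PAL and 121 to 123 FPKM in control, most of it SOX10. The other 5 of these 6 had log2 fold changes below 0, and S100B (-0.29, adjusted p = 0.0300 by limma) and ERBB3 (-0.16, adjusted p = 0.0295) were lower. Keratinocyte markers summed to 30.8 to 33.4 FPKM in PAL and 31.5 to 36.4 FPKM in control, mostly KRT10, and KRT14 was lower (-0.31, adjusted p = 0.0422 by limma). Fibroblast markers summed to 3.11 to 4.47 FPKM in PAL and 4.15 to 4.70 FPKM in control, and those of endothelial and immune cells to at most 0.287 FPKM in any library. The part of these cell markers in the results was not tested. In bulk RNA, fewer cells that express a gene and less of its RNA per cell cannot be told apart.

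DNAJB1, the main stress-inducible class B partner of cytosolic HSP70, had the largest change in the family. It had 70.9, 74.0 and 124 FPKM in PAL libraries, against 1272, 1339 and 1408 FPKM in control libraries. The means were 89.8 ± 30.1 FPKM in PAL and 1340 ± 68.2 FPKM in control (SD, n = 3 each), a 14.9-fold difference. The groups were far apart, and PAL replicate 3 stood above the other PAL libraries. On the log2 scale DNAJB1 fell by 3.93 (SE 0.20, adjusted p = 4.21e-05 by limma). Without PAL replicate 3 the mean was 18.5-fold lower in PAL.

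DNAJB4, a close class B relative of DNAJB1, had 5.19, 4.72 and 6.73 FPKM in PAL libraries, against 40.4, 44.8 and 47.4 FPKM in control libraries. It fell by 2.80 (SE 0.11, adjusted p = 1.77e-05 by limma), with PAL replicate 3 again the highest of its group. Among the 45 members it was the fourth most abundant in control and ranked 20 in PAL.

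DNAJA1, the abundant class A partner of HSP70 in the cytosol, had 160, 164 and 174 FPKM in PAL libraries, against 326, 349 and 370 FPKM in control libraries. It fell by 1.07 (SE 0.05, adjusted p = 3.70e-05 by limma), a 2.10-fold difference between the means. Its 3 PAL values were close together. DNAJA1 was thus the most abundant member in PAL and DNAJB1 the next, an order that was the reverse in control. DNAJA2, the other abundant class A protein of the cytosol, had 23.2, 22.9 and 23.7 FPKM in PAL libraries and 23.7, 24.0 and 26.0 FPKM in control libraries. Its groups overlapped and it did not pass (log2 fold change -0.07, adjusted p = 0.227 by limma).

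DNAJB6, a class B protein that keeps polyglutamine proteins from aggregating, had 13.8, 14.1 and 14.3 FPKM in PAL libraries, against 20.8, 21.8 and 25.4 FPKM in control libraries. It fell by 0.65 (SE 0.07, adjusted p = 0.00114 by limma). The PAL values were almost equal, and all lay well below the lowest control value.

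**Figure D1:**
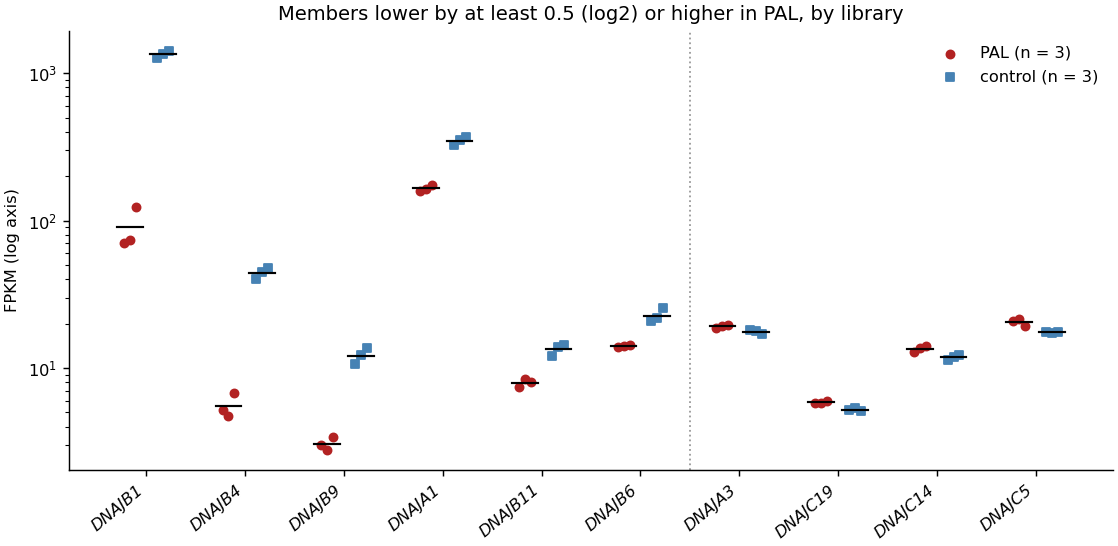
FPKM on a log axis in each library for the 6 members lower in PAL by at least 0.5 on the log2 scale (left of the dotted line) and the 4 higher members (right of it). Points are libraries (circles PAL, squares control, n = 3 each), and black lines are group means. DNAJB1 sits at 70.9 to 124 in PAL and 1272 to 1408 in control, and the higher members differ little between groups.

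Shown are the first-listed RefSeq start regions of these 4 cytosolic genes, which were read for the classic binding motif of heat shock factors. Each is 300 bases of RefSeq's GRCh38.p14, from 250 bases before the start of transcription to 50 after, written 5′ to 3′ on the gene's strand, with capitals for motif matches. The starts are RefSeq's. For DNAJB4 that is the 5′ end of the gene in the deposited table, while for DNAJA1, DNAJB1 and DNAJB6 it lies 62, 499 and 1623 bases downstream of it, and regions before other starts were not searched. The regions are chr9:33025023-33025322 (plus strand) for DNAJA1, chr7:157336754-157337053 (plus) for DNAJB6, chr19:14529222-14529521 (minus) for DNAJB1 and chr1:77978925-77979224 (plus) for DNAJB4.
DNAJA1: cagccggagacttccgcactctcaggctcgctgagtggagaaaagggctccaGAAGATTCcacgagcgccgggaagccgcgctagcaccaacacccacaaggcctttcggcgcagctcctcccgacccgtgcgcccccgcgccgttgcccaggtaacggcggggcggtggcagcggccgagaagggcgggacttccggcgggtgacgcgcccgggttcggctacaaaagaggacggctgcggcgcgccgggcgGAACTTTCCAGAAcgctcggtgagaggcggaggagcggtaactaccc
DNAJB6: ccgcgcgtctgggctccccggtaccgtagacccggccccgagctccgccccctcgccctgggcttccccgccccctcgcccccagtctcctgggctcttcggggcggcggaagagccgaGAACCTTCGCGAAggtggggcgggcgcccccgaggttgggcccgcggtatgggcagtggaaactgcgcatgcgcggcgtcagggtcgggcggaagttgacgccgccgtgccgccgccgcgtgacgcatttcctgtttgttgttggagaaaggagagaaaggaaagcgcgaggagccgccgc
DNAJB1: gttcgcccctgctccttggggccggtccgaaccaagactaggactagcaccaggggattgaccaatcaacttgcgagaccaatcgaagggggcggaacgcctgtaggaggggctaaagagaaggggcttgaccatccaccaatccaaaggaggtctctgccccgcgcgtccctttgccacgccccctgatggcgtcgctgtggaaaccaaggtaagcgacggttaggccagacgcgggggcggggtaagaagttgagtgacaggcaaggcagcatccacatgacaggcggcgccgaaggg
DNAJB4: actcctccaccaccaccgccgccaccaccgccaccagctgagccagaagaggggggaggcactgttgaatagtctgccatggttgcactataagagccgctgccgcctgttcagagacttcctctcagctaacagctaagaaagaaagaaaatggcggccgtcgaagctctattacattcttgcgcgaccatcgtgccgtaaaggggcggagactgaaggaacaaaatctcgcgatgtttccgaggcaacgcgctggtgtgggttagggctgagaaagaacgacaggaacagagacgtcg

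A 3-unit heat shock element was searched on both strands as GAANNTTCNNGAA or TTCNNGAANNTTC. DNAJA1 held GAACTTTCCAGAA just after its start, and DNAJB6 held GAACCTTCGCGAA upstream of its start. They were the only 2 of 41 members with a RefSeq promoter to match, where 0.490% of all 35116 promoters of this length did. The 2-unit form GAANNTTC or TTCNNGAA, which lies within the 3-unit form, matched 4 of 41 members and 13.5% of all promoters. Those were DNAJA1, DNAJB6, DNAJC15 and DNAJB7. In the windows searched, DNAJB1 and DNAJB4, the members with the largest falls, had no exact match of either form. The DNAJB1 window covers only 14529222-14529521 of a gene that spans chr19:14514770-14529770. Any other start of these genes was not searched, so whether their promoters hold the motif was not tested. A stress element of the endoplasmic reticulum, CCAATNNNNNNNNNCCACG, matched none of the members and 0.0769% of all promoters. The cyclic AMP element TGACGTCA matched only DNAJC27 among members and 1.85% of all promoters. A match describes the letters and is not a binding site, and no match says only that these letters are absent from the window. DNAJC1, DNAJC22, DNAJC24 and DNAJC5B were not matched to a promoter.

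By class, 6 of the 8 tested class B members fell (75%) and none rose, with a median log2 fold change of -0.67. Among all tested genes 14.5% were lower and 11.4% higher. Class C had 6 of 24 lower (25%) and 3 higher (12.5%, near the share of all genes). Its median was -0.04, with a range of -0.37 to 0.22. Class A had 3 tested members, of which DNAJA1 fell, DNAJA3 rose and DNAJA2 did not pass. All 4 members that fell by more than 1 on the log2 scale belonged to class A or B. The difference between classes was not tested.

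**Figure D2:**
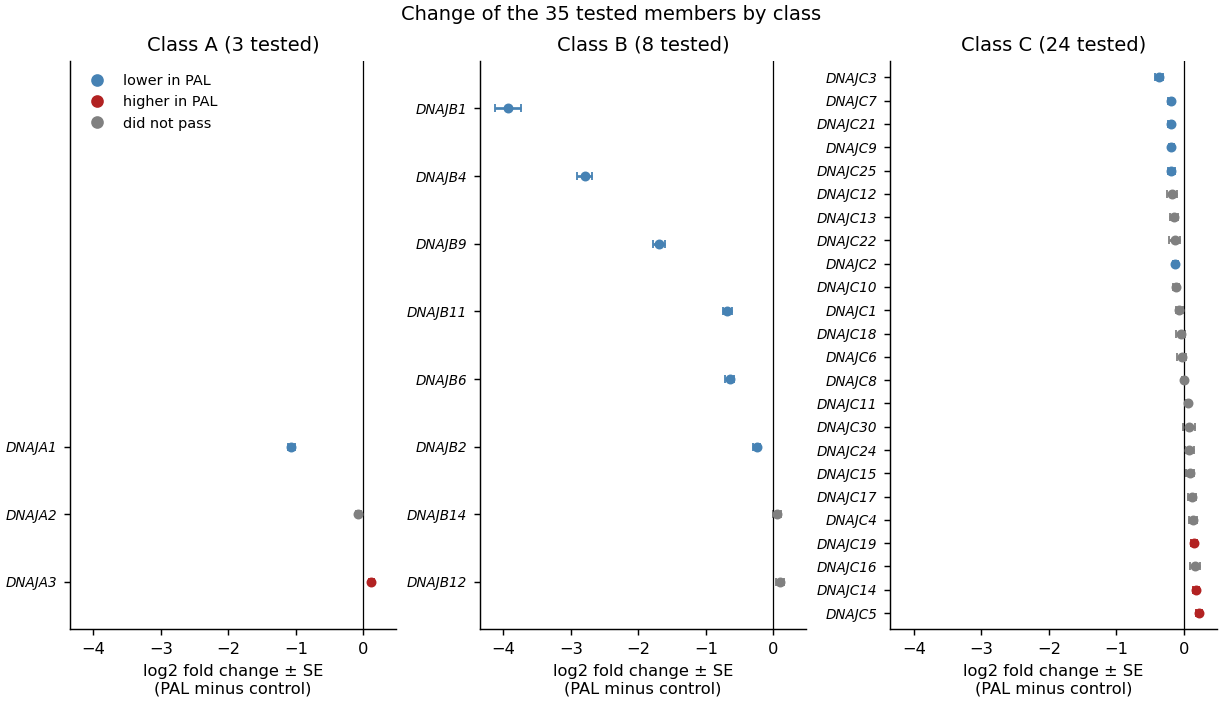
Log2 fold change (PAL minus control) with its standard error for each of the 35 tested members, in a panel per class. Blue points are lower in PAL, red points higher and grey points did not pass. Class B reaches from -3.93 to 0.10, and class C stays between -0.37 and 0.22.

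The summed level of the family was 555, 567 and 629 FPKM in PAL libraries, against 1986, 2088 and 2184 FPKM in control libraries. DNAJB1 alone made up 15.2% ± 3.98 of that sum in PAL and 64.2% ± 0.23 in control (SD, n = 3 each). DNAJA1 made up 28.4% ± 0.68 in PAL and 16.7% ± 0.26 in control. Without both genes the rest of the family summed to 328 ± 2.81 FPKM in PAL and 398 ± 9.26 FPKM in control. Class C, with the most members, summed to 241 ± 1.81 FPKM in PAL and 248 ± 1.42 FPKM in control. Its share of the family was 41.3% in PAL and 11.9% in control while the class B sum was 135 ± 31.1 FPKM in PAL and 1447 ± 76.8 FPKM in control. FPKM depends on the deposited gene lengths, which span the exons of many transcripts, so levels between genes are approximate.

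**Figure D3:**
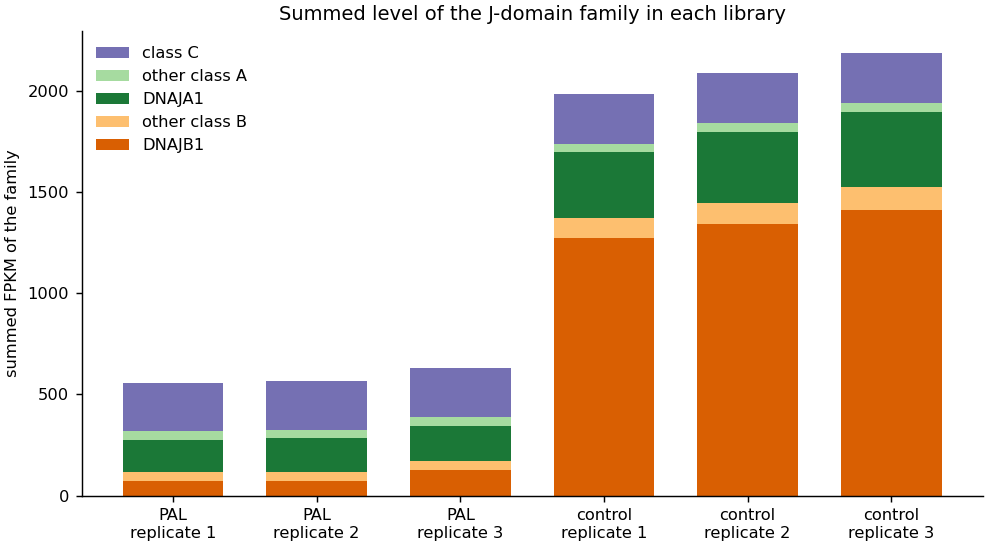
Summed FPKM of the 45 members in each library, stacked by class with DNAJB1 and DNAJA1 drawn apart. The PAL libraries reach 555 to 629 and the control libraries 1986 to 2184, while the class C segments are close to equal, with means of 241 in PAL and 248 in control.

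The cytosolic and nuclear members served by HSPA1A and HSPA8, inducible and constitutive HSP70s, held most of the lower genes. Of 11 tested, 8 fell (72.7%), none rose and 3 did not pass, with a median of -0.20. Among all tested genes 14.5% were lower and 11.4% higher. Besides DNAJB1, DNAJB4, DNAJA1 and DNAJB6, the falls were small. DNAJB2, a ubiquitin-binding member known from neurons, fell by 0.25 (adjusted p = 0.0187, limma), and DNAJC7, which binds both HSP70 and HSP90, fell by 0.20 (adjusted p = 0.00964). DNAJC21, needed for ribosome assembly, fell by 0.19 (adjusted p = 0.0133), and DNAJC2, the ribosome-associated member, fell by 0.13 (adjusted p = 0.0364). DNAJA2, DNAJC24 and DNAJC12 did not pass. DNAJC24 takes part in making diphthamide, and DNAJC12 is a partner of aromatic amino acid hydroxylases.

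Some of the smaller cytosolic calls were lost when a library was left out. DNAJC21 gave an adjusted p of 0.0506 without PAL replicate 1. DNAJB2 gave 0.0532 without PAL replicate 2 and 0.0583 without control replicate 1. DNAJC2 lost its call when any library but control replicate 3 was left out, with values up to 0.107, and at 0.325 with plain read totals. DNAJC7 kept its call in every alternative run.

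The endoplasmic reticulum had 11 members, all tested, of which 4 fell, 1 rose and 6 did not pass, with a median of -0.07. Lower members were 36.4% and higher ones 9.09%, where 14.5% and 11.4% of all tested genes were. DNAJB9, which binds misfolded proteins and represses the stress sensor IRE1, had 3.01, 2.79 and 3.39 FPKM in PAL libraries, against 10.6, 12.2 and 13.6 FPKM in control libraries. It fell by 1.69 (SE 0.09, adjusted p = 5.65e-05 by limma), with every PAL value far below every control value.

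DNAJB11, a partner of the luminal HSP70 HSPA5 in folding secreted proteins, had 7.43, 8.43 and 8.06 FPKM in PAL libraries, against 12.1, 13.9 and 14.3 FPKM in control libraries. It fell by 0.68 (SE 0.07, adjusted p = 0.000989 by limma), and its groups were well separated. DNAJC3, a luminal member also known as an inhibitor of eIF2alpha kinases, had 14.6, 14.3 and 14.0 FPKM in PAL libraries, against 17.4, 18.1 and 20.8 FPKM in control libraries. It fell by 0.37 (SE 0.06, adjusted p = 0.00761 by limma), again without overlap.

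DNAJC25 fell by 0.18 (adjusted p = 0.0371, limma), a call that was lost when any 1 of the 6 libraries was left out (adjusted p of 0.0598 to 0.108). DNAJC14, a membrane protein known for its part in receptor export, had 12.9, 13.6 and 14.1 FPKM in PAL libraries, against 11.3, 11.9 and 12.3 FPKM in control libraries. It was higher by 0.18 (SE 0.05, adjusted p = 0.0336 by limma), and the gap between the groups was narrow. Without PAL replicate 2, PAL replicate 3, control replicate 1 or control replicate 2 its adjusted p was 0.0977, 0.0933, 0.0919 and 0.0801 in that order. The 6 that did not pass included DNAJB12 and DNAJB14, relatives that act in degradation at the membrane, and DNAJC1, which contacts ribosomes at the translocon. DNAJC10, the disulfide reductase of the lumen, changed by -0.11 (adjusted p = 0.128, limma), with no overlap between its groups. DNAJC16 and DNAJC18 were the others. The summed FPKM of the compartment's members was 67.8 ± 0.85 in PAL and 85.7 ± 5.34 in control (SD, n = 3 each).

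The 5 mitochondrial members lay on the other side of 0, with log2 fold changes of 0.07 to 0.15. DNAJC30 was the exception under 1 alternative, with -0.0040 without PAL replicate 2. DNAJA3, the class A partner of mitochondrial HSP70 in the matrix, had 18.8, 19.2 and 19.6 FPKM in PAL libraries, against 18.0, 17.7 and 17.1 FPKM in control libraries. It was higher by 0.12 (SE 0.03, adjusted p = 0.0403 by limma). DNAJC19, a J protein of the inner membrane import motor, had 5.79, 5.83 and 6.01 FPKM in PAL libraries, against 5.20, 5.35 and 5.09 FPKM in control libraries. It was higher by 0.15 (SE 0.04, adjusted p = 0.0386 by limma). Both differences were small and without overlap, and both calls were lost when any 1 library was left out, with adjusted p of 0.0588 to 0.112 for DNAJA3 and 0.0688 to 0.107 for DNAJC19.

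DNAJC11, a mitochondrial membrane protein associated with cristae, had 27.9, 28.9 and 28.9 FPKM in PAL libraries, against 26.9, 27.6 and 27.1 FPKM in control libraries. It did not pass as deposited (log2 fold change 0.07, adjusted p = 0.126 by limma), although its groups did not overlap. DNAJC15, a relative of DNAJC19 in the import motor, and DNAJC30, known from the respiratory chain, did not pass either. The compartment's members summed to 60.0 ± 1.07 FPKM in PAL and 56.0 ± 0.38 FPKM in control (SD, n = 3 each).

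**Figure D4:**
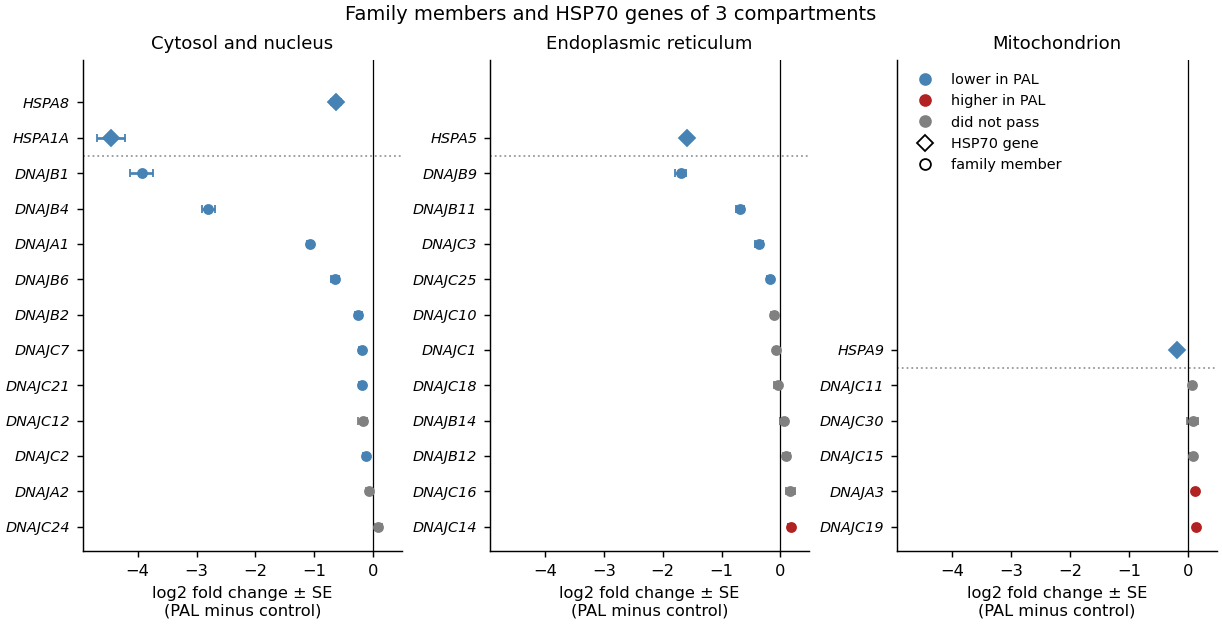
Log2 fold change (PAL minus control) with its standard error for tested members (circles) of 3 compartments and for HSP70 genes of each (diamonds, above the dotted line). Blue is lower in PAL, red higher and grey did not pass. Cytosolic members spread from -3.93 to 0.08, those of the endoplasmic reticulum from -1.69 to 0.18 and mitochondrial ones from 0.07 to 0.15.

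Among vesicle and endosome members, DNAJC5, the cysteine string protein of secretory vesicles, had 20.8, 21.5 and 19.3 FPKM in PAL libraries, against 17.7, 17.3 and 17.5 FPKM in control libraries. It was higher by 0.22 (SE 0.04, adjusted p = 0.0111 by limma) and was the only one of the 4 higher members whose call held in all 18 alternatives run. DNAJC13, an endosomal protein that acts with the retromer, and DNAJC6, which uncoats clathrin vesicles, did not pass.

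In the nucleus, DNAJC8, a protein found with the spliceosome and the most abundant class C member, had 47.5, 48.9 and 45.8 FPKM in PAL libraries and 48.0, 47.8 and 46.0 FPKM in control libraries. Its groups overlapped fully (log2 fold change 0.0042, adjusted p = 0.938 by limma). DNAJC9, a histone chaperone that recruits HSP70, had 19.9, 19.7 and 20.7 FPKM in PAL libraries, against 23.2, 23.7 and 22.2 FPKM in control libraries. It fell by 0.19 (SE 0.04, adjusted p = 0.0110 by limma), with adjusted p of 0.0607 under plain read totals and 0.0597 in TPM. DNAJC17, a splicing factor partner, did not pass. DNAJC4 and DNAJC22, which were put in no compartment, did not pass.

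The 18 tested members that did not pass ranged from -0.18 to 0.17 on the log2 scale, with adjusted p of 0.126 to 0.938 by limma. In 8 of them the groups did not overlap. Among all tested genes 23.6% were lower and 21.4% higher without overlap. Those shares include the called genes, so they are not a like base for members that did not pass.

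Within the PAL group, DNAJB1 and DNAJB4 varied the most of the tested members. On the log2(FPKM + 1) scale PAL replicate 3 lay above the mean of PAL replicates 1 and 2 by 0.77 in DNAJB1, 0.38 in DNAJB4, 0.17 in DNAJB9 and 0.10 in DNAJA1, and below it by 0.25 in DNAJC30. Of the 13 lower members, 9 had their highest PAL value in replicate 3, as did 20 of all 35 tested members.

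The other 10 members were below the minimum. DNAJB5, a class B relative of DNAJB1 and DNAJB4, had 0.305, 0.285 and 0.369 FPKM in PAL libraries and 0.622, 0.642 and 0.877 FPKM in control libraries. Its groups did not overlap, and with no minimum its log2 fold change was -0.37 (adjusted p = 0.0541 by limma over 29505 genes). DNAJC27 averaged 0.575 FPKM in PAL and 0.751 FPKM in control, with overlap. DNAJC28, DNAJB7, DNAJA4, DNAJB13, DNAJC5B and the read-through gene DNAJC25-GNG10 averaged at most 0.104 FPKM in either group. DNAJC5G and DNAJB8 had no reads in any library.

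Gene overlaps bear on some of these values, because no source used here states the strand setting of the counting. Of the 35 tested members, 24 share bases with another gene, and for 19 of them that gene lies on the other strand. For 11 of the 24, an overlapping gene had 1 FPKM or more in at least 3 libraries. DNAJB1, at chr19:14514770-14529770 on hg38, overlaps TECR on the other strand, which was higher in PAL (24.9 FPKM in PAL and 21.7 FPKM in control). DNAJB9 overlaps THAP5, which was higher, and PNPLA8, which was lower by 0.31, both on the other strand. DNAJC9 shares bases with MRPS16 on its own strand, which was higher. Neighbours on the other strand also moved the same way as their member, with CNP lower by 0.13 over DNAJC7 and TMEM198B higher by 0.28 over DNAJC14. The part of these neighbours in the members' values was not tested. The family also has 19 pseudogene rows in the table, which could draw reads from DNAJA1 and others, and 14 of them had no reads.

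The proteins that work beside J-domain proteins in the HSP70 cycle were read in the same fit. Of 30 partners, 18 were lower in PAL libraries, 3 were higher and 9 did not pass, with a median log2 fold change of -0.22. Lower partners were 60.0% of the 30, where 14.5% of all tested genes were lower, and higher ones 10%, where 11.4% of all tested genes were higher. Among 10 HSP70 genes, 9 fell. These lower counts and the 60.0% include HSPA1L, which passed the minimum only through control libraries, where it was higher. The stress-inducible HSP70 gene HSPA6 had 20.7, 27.4 and 73.2 FPKM in PAL libraries, against 1999, 1960 and 1685 FPKM in control libraries. It fell by 5.71 (SE 0.41, adjusted p = 0.000179 by limma), and like DNAJB1 it was highest, within PAL, in replicate 3. The mean of HSPA6 was 46.5-fold lower in PAL, or 78.3-fold lower without PAL replicate 3. HSPA1A and HSPA1B, near-identical copies whose reads could be split between them, fell by 4.45 and 4.43 (adjusted p = 4.59e-05 and 7.40e-05 by limma). HSPA6 and HSPA1A were thus at 1364 to 1999 FPKM in control libraries, beside the 1272 to 1408 FPKM of DNAJB1. How the control cells came to these levels was not tested. Every direction in these results rests on the group labels, which no value here checks, and an exchange of the labels would turn each of them round.

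HSPA8, the constitutive cytosolic HSP70, had 623, 633 and 765 FPKM in PAL libraries and 998, 1009 and 1118 FPKM in control libraries. It fell by 0.63 (adjusted p = 0.00285, limma), beside a log2 fold change of -1.07 for DNAJA1. HSPA5, the HSP70 of the endoplasmic reticulum, fell by 1.59 (SE 0.06, adjusted p = 1.27e-05 by limma), beside log2 fold changes of -1.69 for DNAJB9 and -0.68 for DNAJB11 in the same compartment. HSPA9, the mitochondrial HSP70, fell by 0.18 (adjusted p = 0.0055, limma), while its J partner DNAJA3 was higher by 0.12. With quantile normalization the adjusted p of HSPA9 was 0.0895, and with plain read totals it was 0.0504. HSPA1L, HSPA2 and HSPA14 also fell, the first 2 by 2.10 and 1.31. The call of HSPA14 ended in 5 of the 6 fits that left out a library. HSPA1L reached the minimum level through control libraries only. HSPA13 did not pass.

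Nucleotide exchange factors, which release the client by opening HSP70, moved unequally, with 6 of 13 lower, 2 higher and 5 not passing. Among all tested genes 14.5% were lower and 11.4% higher. HSPH1, the inducible HSP110, fell by 1.89, and HSPA4L, its relative, fell by 1.13 (adjusted p = 4.59e-05 and 0.00262 by limma). HYOU1, the exchange factor of the endoplasmic reticulum, fell by 0.36 (adjusted p = 0.00921). BAG3, which couples HSP70 to autophagy, fell by 2.41 (adjusted p = 2.36e-05). BAG1 and mitochondrial GRPEL1 fell by 0.33 and 0.27. BAG5 and HSPBP1 were higher by 0.19 and 0.15, calls that at least 4 of the 6 leave-one-out fits ended. HSPA4, BAG2, BAG4, SIL1 and GRPEL2 did not pass, with log2 fold changes of -0.18 to 0.02. The adaptors STIP1 and ST13 fell by 0.45 and 0.22, and the ubiquitin ligase STUB1 was higher by 0.10, a call that 5 of those fits ended.

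Some J-domain proteins do not carry the DNAJ name, and those given here changed little. SEC63, the J protein of the translocon, fell by 0.21 (adjusted p = 0.0164, limma), with 0.0558 without PAL replicate 2 and 0.0502 without control replicate 2. HSCB, which serves iron-sulfur cluster assembly, changed by 0.02 and did not pass. GAK, a relative of DNAJC6 in clathrin uncoating, changed by -0.11 and did not pass (adjusted p = 0.0987, limma).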

How the data were processed

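Gene expression was measured by RNA-seq in 6 libraries, 3 PAL and 3 control, grouped by sample title. The deposited table holds FPKM, made by the authors from gene lengths and library sizes, per the file headers; the build is hg38 (submitters' processing notes), and for aligner, counter and strand setting these sources give nothing. FPKM times gene length gave whole reads within 0.01 for 100.0% of values, which gave the depth.

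Genes with at least 1 FPKM in at least 3 libraries were fitted with limma 3.58.1 (R 4.3.3) on log2(FPKM + 1), with a variance trend, 4 residual degrees of freedom, two-sided tests and Benjamini-Hochberg adjustment over all genes tested (threshold 0.05). Fold changes on this scale understate low genes. Members follow the naming rule, and compartments and partners were assigned by hand from general knowledge; members and lists were chosen with earlier results of these data known. Library values are given for members that passed with at least 0.5 on the log2 scale, for every higher member and for the 2 most abundant of each class. Values of DNAJC3, DNAJC9 and DNAJB5 were added after they were seen. Other partners named passed with at least 1 on that scale or belong to a named group, and 1 partner counted in the totals is not reported here. Promoters came from RefSeq GRCh38.p14, and 41 of 45 members matched, with the first start listed for each member taken. Alternatives were other pseudocounts, filters, scalings, no variance trend, voom on recovered reads, a replicate block, protein-coding genes only and libraries left out.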

Additional observations from a re-analysis of the deposited data

How the results depend on the processing

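Of the 17 called members, 9 kept their call in all 18 alternatives. These were DNAJB1, DNAJB4, DNAJA1, DNAJB6, DNAJC7, DNAJB9, DNAJB11 and DNAJC3 as lower and DNAJC5 as higher. No call changed sign. The count of lower members, 13, stayed within 1.5 times of itself, from 9 with plain read totals to 14 with voom, and 5 of the 18 members that did not pass were called under some alternative.

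Counts of higher members moved more. The family's 4 became 1 without both libraries numbered 3, 1 with no filter, 2 with no variance trend, 7 with plain read totals and 1 to 2 with 1 library left out. Class A's 1 became 0 without both libraries numbered 3, with no filter, with no variance trend and with each library left out (0 to 0). Class C's 3 became 1 without both libraries numbered 3 and with no filter, 6 with plain read totals and 1 to 2 with 1 library left out. The endoplasmic reticulum's 1 became 0 in those first 2 settings and with no variance trend, and 0 to 1 with 1 library left out. The mitochondrion's 2 became 0 in those first 2 settings, 1 with no variance trend, 1 with voom and 0 with each library left out. The partners' 3 became 0 without both libraries numbered 3, 0 with no filter, 1 with no variance trend and 0 to 1 with 1 library left out. Class C's 6 lower became 3 without both libraries numbered 3, 2 with plain read totals, 3 in TPM and 3 to 5 with 1 library left out. The cytosol and nucleus's 8 lower became 5 without both libraries numbered 3. The cause of these moves was not tested.

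Same-numbered libraries correlated at -0.0239, 0.0273 and -0.0447 in their deviations from the group means, so no common shift over all genes was seen. This cannot tell whether same-numbered libraries shared a culture or day, which the labels do not say. With the replicate block, higher members were 2 in the family, 0 in class A, 0 in the mitochondrion and 1 among partners, and class C had 3 lower. The 10 members under the minimum level were not tested in the main comparison.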
